A study of Drosophila melanogaster with 3 samples.

Results

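Of the 9459 peaks at which eGFP-tagged Pipsqueak was reproducibly found in whole Drosophila melanogaster larvae, 1850 (19.6%) had their summit inside an intron and far from any gene start. The rule that chose them used position alone, and it was set with earlier results of these data known. The summit lay in an intron and in no annotated exon, and more than 3000 bp from the nearest annotated start site of any gene, on dm6 gene models. Chromatin came from whole wandering third-instar larvae, males and females pooled, of a transgenic line that stably expresses psq with GFP fused to its C terminus, and an anti-GFP antibody pulled it down. These 3 biological replicates form 1 group, so no test between conditions was possible and no control genotype was compared. The authors deposited peak lists, namely 1 list per replicate and an optimal list that passed their reproducibility step, and gave no read counts. Sequencing depth is therefore unknown. The authors gave each peak a signal value on an unstated scale, which ranks peaks only within its own list. A peak from whole larvae averages all tissues, so strong binding in few cells and weak binding in many cells cannot be told apart.

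Pipsqueak is a DNA-binding protein with a BTB domain, the pairing domain through which many fly transcription factors assemble, and it belongs with the GAGA-associated factors, which recognise runs of GA on DNA and recruit both activating and Polycomb-type chromatin complexes. Its known recognition sequence contains GAGAG. In flies, long introns of developmental genes commonly hold enhancers, the stretches that switch a gene on in a given tissue from a distance, and the first introns of such genes are often the longest.

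The DNA under the summits of the strongest of these peaks is shown as examples. The sequences below are centred on the summit of the 8 strongest members outside the right arm of the second chromosome, read 5′ to 3′ from the plus strand of the dm6 reference (RefSeq). Capitals mark GAGAG, or CTCTC, which is GAGAG read from the other strand. Of these 8 windows, 5 held the motif, so they are not typical of the class. Over all 1850 members 16.9% of such windows held it, in the strongest 370 members 21.9%, and at all optimal summits 17.0%. In InR, which encodes the insulin receptor, a long CT run closes the window. In wts, which encodes the Warts kinase of the Hippo growth-control pathway, GAGAG recurs within a GA-rich stretch.
InR, chr3R:21605560-21605660: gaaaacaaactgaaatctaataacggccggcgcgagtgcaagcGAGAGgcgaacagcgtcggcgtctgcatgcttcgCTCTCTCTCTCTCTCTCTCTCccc
wts, chr3R:30794879-30794979: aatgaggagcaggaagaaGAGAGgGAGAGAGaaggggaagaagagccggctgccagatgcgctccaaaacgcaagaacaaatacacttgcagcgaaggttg
Eip75B, chr3L:18011875-18011975: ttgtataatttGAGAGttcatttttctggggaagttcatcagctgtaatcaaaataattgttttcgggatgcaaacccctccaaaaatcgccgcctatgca
l(3)L1231, chr3R:14649637-14649737: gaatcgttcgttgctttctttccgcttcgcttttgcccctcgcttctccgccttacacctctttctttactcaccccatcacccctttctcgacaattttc
tara, chr3R:16231451-16231551: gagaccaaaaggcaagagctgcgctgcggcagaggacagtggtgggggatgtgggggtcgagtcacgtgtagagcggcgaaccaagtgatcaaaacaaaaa
lncRNA:CR45054, chr3R:10087574-10087674: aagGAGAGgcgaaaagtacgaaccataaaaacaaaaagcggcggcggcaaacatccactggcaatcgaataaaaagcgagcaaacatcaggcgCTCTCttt
CG32486, chr3L:3060774-3060874: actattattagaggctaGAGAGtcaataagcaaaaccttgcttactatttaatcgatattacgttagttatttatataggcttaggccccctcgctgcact
zld, chrX:19773920-19774020: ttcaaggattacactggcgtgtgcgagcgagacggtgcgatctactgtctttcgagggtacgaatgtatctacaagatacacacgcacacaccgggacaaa

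The windows of l(3)L1231, tara and zld held no GAGAG. Tara is known as a partner of trithorax-group regulators, and zld encodes Zelda, a zinc-finger protein that opens early embryonic chromatin. The gene with the most distal intronic peaks outside the same arm was Tet, which encodes the fly relative of the methylcytosine dioxygenases. The summit windows of its 6 strongest separate regions are shown to compare sites within 1 gene, with the same capitals. The motif stood in 3 of the 6, against 16.9% of the windows of all distal intronic peaks.
Tet, chr3L:2824435-2824535: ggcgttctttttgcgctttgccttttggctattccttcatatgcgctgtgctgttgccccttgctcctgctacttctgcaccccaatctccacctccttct
Tet, chr3L:2808435-2808535: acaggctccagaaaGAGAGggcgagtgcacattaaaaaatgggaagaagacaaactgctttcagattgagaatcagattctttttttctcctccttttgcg
Tet, chr3L:2835051-2835151: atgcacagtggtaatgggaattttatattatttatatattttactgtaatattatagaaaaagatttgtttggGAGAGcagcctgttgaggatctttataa
Tet, chr3L:2833785-2833885: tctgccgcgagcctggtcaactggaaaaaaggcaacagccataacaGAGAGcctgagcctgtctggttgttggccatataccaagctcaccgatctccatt
Tet, chr3L:2831731-2831831: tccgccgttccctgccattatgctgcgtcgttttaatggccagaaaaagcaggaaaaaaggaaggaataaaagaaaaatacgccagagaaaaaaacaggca
Tet, chr3L:2847412-2847512: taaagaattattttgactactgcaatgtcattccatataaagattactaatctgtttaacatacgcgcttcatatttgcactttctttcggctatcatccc

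Distal introns held Pipsqueak summits less densely than introns close to start sites, and more densely than intergenic sequence also beyond 3000 bp from start sites. Distance beyond that limit was not matched between the classes. To compare the replicates on equal terms, the 9459 strongest entries by signal were taken from every replicate (its top list). The top lists of replicates 1, 2 and 3 placed 1801, 1908 and 1856 summits in distal introns, a mean of 1855 ± 53.5 (SD, n = 3). These introns make up 36.1 Mb of the reference. The density was 49.9, 52.9 and 51.5 summits per Mb, a mean of 51.4 ± 1.48 (SD, n = 3). In introns 501 to 3000 bp from a start site the mean was 111 ± 2.91 per Mb, and in intergenic sequence beyond 3000 bp it was 26.7 ± 0.735 per Mb. The difference from nearer introns was -60.0 ± 3.52 per Mb and that from distal intergenic sequence was 24.8 ± 0.760 per Mb (SD, n = 3). Every replicate showed both directions, and the classes did not overlap. The exact two-sided sign-flip test over the 3 replicates gave p = 0.25 for each difference, the smallest that 3 samples allow.

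**Figure D1:**
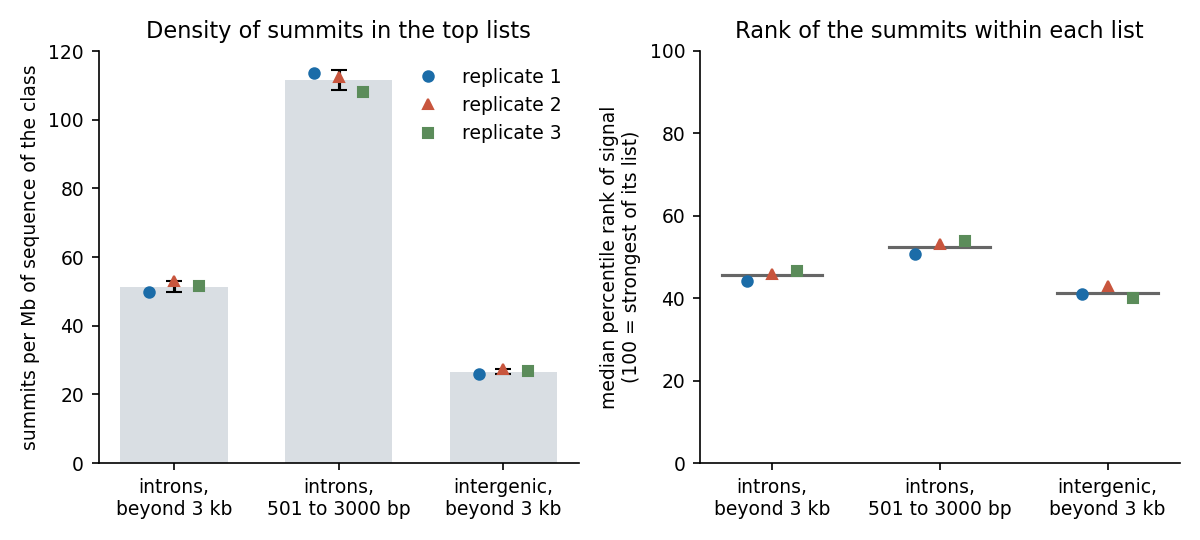
Density of summits (left, bars are means and whiskers SDs over 3 top lists) and median percentile rank of their signal within each list (right, lines are means) for distal introns, introns nearer a start site and distal intergenic sequence; points are the 3 replicates. In all 3 replicates distal introns lay between the other classes on both measures.

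Distal intronic peaks were also somewhat weaker than those in nearer introns. In the optimal list their signal ranged from 191 to 7563 with a median of 336 (quartiles 244 and 553), against medians of 378 in nearer introns, 313 in distal intergenic sequence and 365 over all optimal peaks. Within the top lists the median percentile rank, where 100 is the strongest entry, was 44.1, 45.9 and 46.6 in distal introns. It was 50.7, 53.1 and 53.8 in nearer introns and 41.0, 42.8 and 39.98 in distal intergenic sequence. On the log2 scale the median signal was 0.17 ± 0.01 below that of nearer introns and 0.09 ± 0.04 above that of distal intergenic sequence (SD of the differences, n = 3), in every replicate (exact sign-flip p = 0.25, the smallest possible, for each). Distal intronic peaks made up 16.1% of the strongest 10% of the optimal list and 22.96% of its weakest 10%.

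Most distal intronic peaks were among the strong entries of every replicate. Of the 1850 peaks, 1441 (77.9%) were overlapped by the top list of every replicate, 305 by those of 2 replicates, 102 by that of 1 and 2 by none. Over all optimal peaks the share was 80.7%, in nearer introns 83.4% and in distal intergenic sequence 75.9%. The authors derived the optimal list from these same replicates, which by itself gives some overlap. Replicate 1 overlapped 87.9% of the distal intronic peaks, replicate 2 92.9% and replicate 3 91.3%. A top list is itself a limit on signal, so weaker peaks must have less support, and with all entries of the replicate lists support was 99.2%. With the distal intronic peaks ordered by signal and cut in 10 equal classes of 185, support was 99.5% in the strongest class, where signal was at least 988, and 94.6% in class 5. It was 59.5% in class 8 and 13.5% in the weakest, where signal was between 191 and 208.

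**Figure D2:**
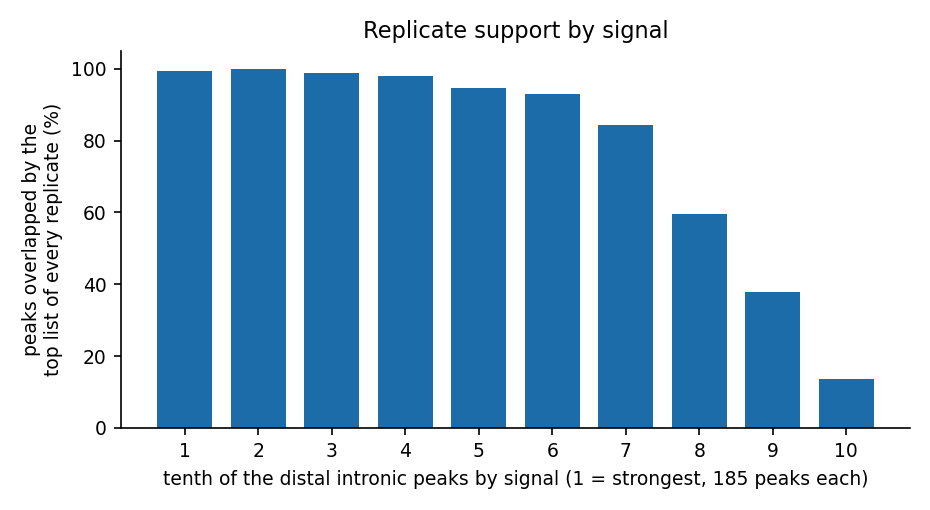
Share of distal intronic peaks overlapped by the top list of every replicate, in 10 classes of 185 peaks ordered by signal in the optimal list. The share was 92.97% in class 6 and 13.5% in the last.

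Replicate 1 stood somewhat apart from the other two. Entries at a q-value of 0.01 or less numbered 9925 in its deposited list, 16596 in replicate 2 and 14879 in replicate 3. Across the 1835 distal intronic peaks with an entry in each replicate, signals correlated at Spearman 0.908 between replicates 2 and 3, 0.806 between 1 and 2, and 0.791 between 1 and 3. Peaks are not independent units in these correlations, and overlapping ones share replicate entries. The replicate summit lay a median of 38, 21 and 19 bp from the optimal summit in replicates 1, 2 and 3.

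The strongest distal intronic peak of the genome lay in InR (3R, summit 21605610), in the first intron, which spans 15153 bp. Its distance to the nearest start site of InR was 13426 bp, and its signal was 7563. It ranked 17, 4 and 2 in replicates 1, 2 and 3, each a list of 30000 entries. The peak in wts (3R, summit 30794929, signal 7454) was nearly as strong and ranked 10, 6 and 5. Its host intron was short at 5548 bp, and the nearest start site was that of a microRNA gene, mir-1013, 3233 bp away, while the nearest wts start site was 11690 bp away. Both stayed within the leading 20 entries of all 3 lists.

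Nuclear receptors of the ecdysone pathway, which carries the steroid signal for moulting and metamorphosis, held further members of the top group. Eip75B encodes an ecdysone-induced nuclear receptor, and its strongest member (3L, summit 18011925) had a signal of 4775 and ranks of 20, 23 and 39. EcR encodes the ecdysone receptor itself. Its strongest member (2R, summit 6125341) had a signal of 3305 and ranks of 215, 59 and 75, so replicate 1 placed it lower than the others did. The remaining top members lay in l(3)L1231 (signal 4240, ranks 68, 39 and 37), tara (3714, ranks 127, 62 and 45), the non-coding gene lncRNA:CR45054 (3698, ranks 129, 52 and 54) and CG32486 (3342). Eip75B and CG32486 were the only ones of the 12 strongest that ranked higher in replicate 1 than in both others, and CG32486 did so by the wider margin, at 21 against 107 and 158. Of the 12 strongest summit windows, 6 held GAGAG, against 16.9% of the windows of all members.

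psq itself hosted 4 of the 12 strongest members, with signals of 5608, 4232, 3662 and 3501 (2R, summits 10564597, 10564801, 10597102 and 10604038). The first pair shared 1 region and the same replicate entries, which ranked 61, 10 and 14. The other pair ranked 163, 46 and 59 and 181, 65 and 52. The labels name an insertion targeting psq, and the copy number of the locus in the line is not known here. psq hosted 16 members in all, and 17, 18 and 17 in the top lists, in 10 separate regions. Left out, as an alternative added after the data were seen, psq moved none of the summaries of the class beyond the spread between replicates, and 1834 members in 585 hosts remained.

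The 3000 bp limit cut through a continuous range. The members just above it lay in Gmap (3003 bp, signal 333), psq (3010 bp, 441), CG9328 (3015 bp, 742) and chm (3016 bp, 450). The intronic peaks just below it lay in siz (3000 bp, 296), CG5910 (2994 bp, 279), brat (2991 bp, 388) and dyl (2991 bp, 340). All 8 of these were overlapped by every top list. The members reached up to 50473 bp from a start site, with a median of 6940 bp and quartiles of 4632 and 11065 bp.

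Density fell with distance from start sites in every replicate. In the top lists it was 73.6 ± 0.445 summits per Mb from 3 to 5 kb, 64.7 ± 2.38 up to 10 kb, 51.4 ± 1.99 up to 20 kb, 27.6 ± 1.58 up to 40 kb and 2.72 ± 0.555 beyond 40 kb (SD, n = 3). The optimal list gave 72.0, 66.0, 51.7, 26.0 and 2.20 per Mb. Soft-masked repeat sequence rose alongside, from 20.8% to 37.3% of the bases, and per unmasked Mb the optimal densities were 90.9, 84.8, 67.8, 35.8 and 3.52. The last class held 10 members. Of its 4.54 Mb, 66.7% belonged to 5 genes with very large introns, Myo81F, Pzl, lovit, CG17684 and DIP-lambda, which held no member. Outside these genes the density beyond 40 kb was 6.62 per Mb. What set these genes apart was not tested.

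**Figure D3:**
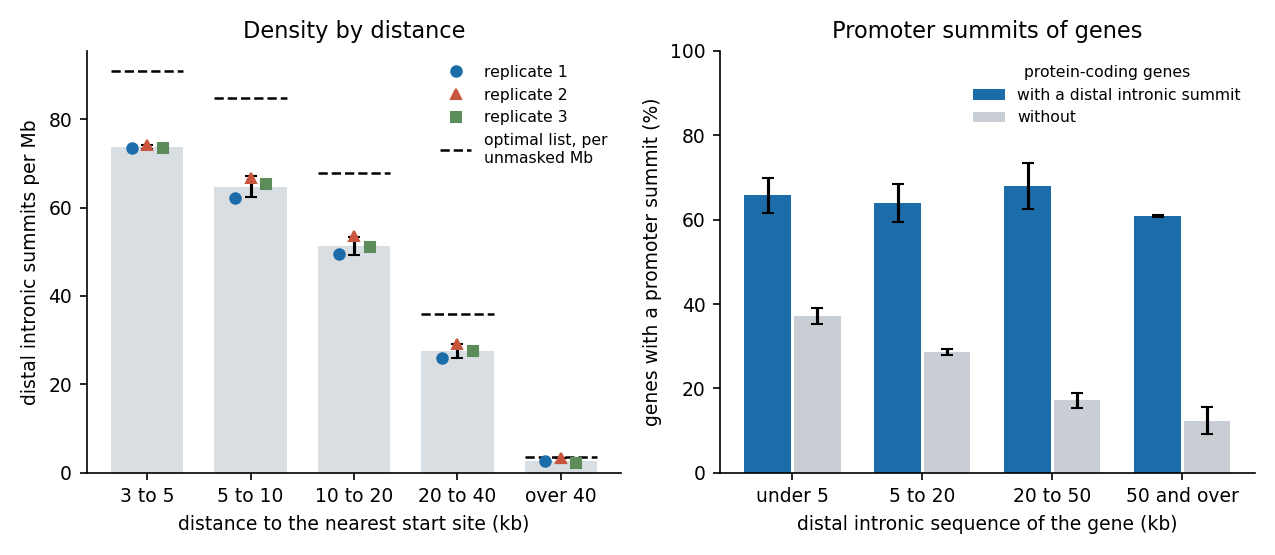
Left, density of distal intronic summits by distance to the nearest start site (bars are means and whiskers SDs over 3 top lists, points are replicates, dashed lines are optimal densities per unmasked Mb), falling from 73.6 to 2.72 per Mb. Right, share of protein-coding genes with a summit within 500 bp of a start site of their own, by the amount of distal intronic sequence, for genes with and without a distal intronic summit (means and SDs over 3 top lists), where genes with one lay higher in every size class.

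First introns held more of the members than their share of the distal intronic sequence. The stretch of intron free of the host gene's exons around a summit had a median length of 14989 bp, quartiles of 8230 and 25741 bp and a range from 311 to 108407 bp. The longest belonged to luna, which encodes a Krüppel-like zinc-finger factor and held 6 members in that intron, the 3 strongest of them with signals of 622, 312 and 252. Over 15260 introns with any sequence beyond 3000 bp from a start site, the median length was 279 bp, but long introns hold most of that sequence. Weighted by base, the median over all distal intronic sequence was 16972 bp, so the members' introns were no longer than the sequence on offer. Density was 50.3 per Mb in introns under 10 kb, 66.6 at 10 to 20 kb, 56.6 at 20 to 40 kb and 33.0 at 40 kb and over. Per unmasked Mb it was 63.6, 86.5, 74.7 and 48.7. Myo81F, Pzl, lovit, CG17684 and DIP-lambda, which held no member, were counted in these lengths. Their part in the differences between length classes was not tested. First introns of any transcript held 1047 members (56.6%), and 57.4%, 57.0% and 57.5% in the top lists, a mean of 57.3% ± 0.269 (SD, n = 3). They made up 35.1% of the distal intronic sequence. Distance from start sites, with which density fell, was not matched between first and other introns. The start site nearest to the summit belonged to the host gene for 1131 members (61.1%) and to another gene for the rest.

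Chromosome arms differed in density. In the top lists the X held 62.4 ± 2.20 members per Mb of its distal intronic sequence, 2L 56.7 ± 3.48, 3L 53.2 ± 1.72, 2R 48.7 ± 1.63, 3R 42.7 ± 1.48 and the fourth chromosome 16.9 ± 5.56 (SD, n = 3). The fourth chromosome rested on 5 optimal members. Myo81F, Pzl, lovit, CG17684 and DIP-lambda, the large genes without a member, were counted in the lengths of their arms. Their part in the differences between arms was not tested. The pooled larvae were of both sexes, and copy number of the X was not measured.

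The peaks were spread over many genes yet gathered within them. The 1850 members had 586 host genes, of which 576 were protein-coding and 10 non-coding. Of the hosts, 228 held 1 member and 358 held several. The 126 hosts with at least 5 members held 1008 of them (54.5%), and the 27 with at least 10 held 381 (20.6%). A host was shared by 1622 members (87.7%), and an intron by 1466 (79.2%), in 419 of the 803 introns that held any. Among members with a neighbour in the same host, the nearest lay a median of 1078 bp away, within 500 bp for 38.9% and within 5000 bp for 82.8%. Overlapping entries of 1 region count as neighbours here, and distances between separate regions alone are not given. Shares for other classes of peaks are not given either, and the part of intron length in this gathering was not tested.

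Part of this gathering came from entries that overlap. The 1850 members formed 1547 separate regions. The 303 neighbouring pairs of summits within a region were never closer than 199 bp, and 234 (77.2%) were 190 to 220 bp apart, with a median of 204 bp. The minimum was 199 bp in nearer introns, distal intergenic sequence and promoters as well. The summit spacing within a region was therefore no finer than this floor, whose origin was not tested. Keeping the strongest entry of each set of overlapping entries left 1537 members in 586 hosts, of which 82.4% shared a host.

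Among the 2901 protein-coding genes with any distal intronic sequence, 19.9% hosted a member. Hosts had a median of 15.7 kb of such sequence and the other genes 1.78 kb. The hosted share was 0.644% of genes with under 1 kb, 12.2% at 1 to 5 kb, 33.5% at 5 to 20 kb, 43.7% at 20 to 50 kb and 56.6% at 50 kb and over. Length therefore went along with hosting. Most counts per gene below are given without the length of the gene's distal intronic sequence, so they are not on equal terms between genes.

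Host genes more often had a Pipsqueak peak at their own promoter too. A summit within 500 bp of a start site of the gene was present in 369 of 576 protein-coding hosts (64.1%) and 757 of 2325 other genes (32.6%), against 38.8% of all genes with distal intronic sequence. Among the 123 protein-coding hosts with at least 5 members the share was 71.5%. In the top lists the hosts' share was 62.8%, 63.6% and 68.4%, and that of other genes 33.8%, 31.2% and 33.9%. The difference was 32.0 ± 2.81 percentage points (SD, n = 3; exact sign-flip p = 0.25, the smallest possible). It was 28.6 ± 2.06 points among genes with under 5 kb of distal intronic sequence, 35.3 ± 3.92 at 5 to 20 kb, 50.8 ± 3.90 at 20 to 50 kb and 48.5 ± 3.15 at 50 kb and over. In the optimal list the hosts' share lay between 56.8% and 69.1% in these classes, while that of other genes fell from 36.6% in the smallest to 12.9% in the largest. Hosts had a median of 2 start sites and other genes 1, so hosts offered more promoters. Both medians were 2 at 5 to 20 kb, and they were 2 and 1 in the other size classes. Genes were not matched by number of start sites, and its part in the difference was not tested.

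Tet held more members than any other gene. It lies on the minus strand of 3L from 2786207 to 2879158 and held 37 members in 26 separate regions, spread over 78.6 kb and 6 introns. The top lists placed 31, 37 and 32 summits there, a mean of 33.3 ± 3.21 (SD, n = 3). Of its members, 31 were overlapped by every top list. A single Tet intron of 30455 bp held 20 of them, the most of any intron. The strongest (summit 2824485) had a signal of 2756, lay 54.7 kb from the first start site and ranked 197, 109 and 102. The strongest member of another region, at 70.7 kb, reached 2356 and ranked 445, 180 and 175. The median signal over its members was 412, above the 336 of all members.

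Ecdysone-induced Eip75B came next with 24 members in 17 separate regions, and 24, 27 and 28 in the top lists (26.3 ± 2.08, SD, n = 3). A single intron of 25509 bp held 14 of them, the strongest included, between 45.5 and 61.1 kb from the first start site. A further strong member at 74.6 kb had a signal of 2237 and ranked 363, 231 and 185. Eip74EF, an ecdysone-induced ETS factor, held 12 members in 11 regions and 9, 14 and 11 in the top lists. Its strongest had a signal of 1619.

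kirre, which encodes an immunoglobulin-family adhesion protein of muscle founder cells, showed an uneven layout. It held 18 members in 16 regions (16, 17 and 15 in the top lists) in the longest distal intronic sequence of any host, 262 kb. These 18 lay between 237.9 and 323.9 kb from its first start site. A further 2 peaks inside its introns, at 223.3 and 224.7 kb, lay in the nested gene rst and were assigned to it, with signals of 195 and 363. The strongest, at 313.1 kb, had a signal of 1711 and ranked 463, 384 and 460. Snoo, a cofactor of SMAD signalling proteins, held 16 members in 16 regions of a single 78434 bp intron (17, 17 and 19 in the top lists). They spread from 10.2 to 86.8 kb, with 1194 as the highest signal.

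**Figure D4:**
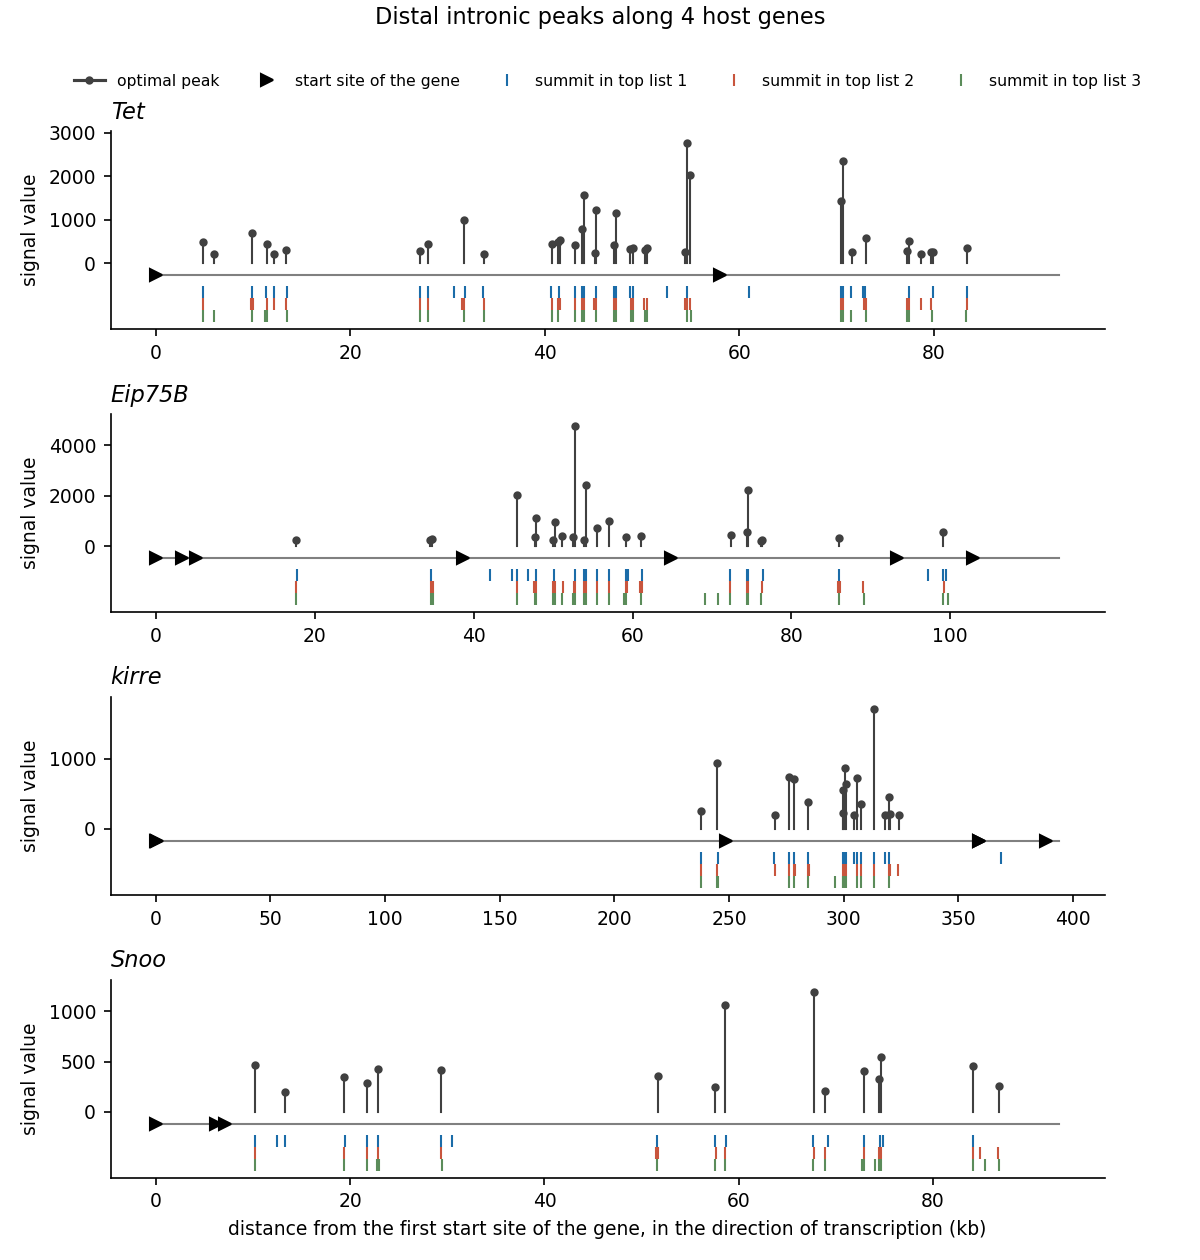
Distal intronic peaks along Tet, Eip75B, kirre and Snoo by distance from the gene's first start site; heights are signal values in the optimal list, triangles are the gene's start sites and ticks are summits in the top lists of replicates 1 to 3. Peaks of Tet lay between 4.8 and 83.4 kb, 20 of the 37 in 1 intron, and those of Snoo between 10.2 and 86.8 kb. Of the 24 of Eip75B, between 17.7 and 99.1 kb, 14 lay between 45.5 and 61.1 kb. The 18 assigned to kirre lay from 237.9 kb onward.

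Further genes of several kinds followed among the hosts with the most separate regions. jing, a zinc-finger factor, held 15 members in 14 regions and 14, 18 and 16 in the top lists. sbb, a nuclear regulator, held 18 in 13 regions and 18, 21 and 17 in the top lists, with a median signal of 674. The non-coding gene lncRNA:CR44833 held 15 in 12 regions, with 8 overlapped by every top list. Glut4EF held 13 in 11 regions and 14 in each top list, and mtgo held 14 in 11 regions with 11, 15 and 13 in the top lists. By plain number of members, which also counts overlapping entries, the 10 leading hosts held 189 of the 1850 (10.2%).

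Counts of hosts and members per Mb of distal intronic sequence differed widely between gene lists of hormone, growth, patterning and neuronal pathways. The lists were chosen with earlier results of these data known, so their counts are descriptions, read beside 19.9% of genes and 49.8 members per Mb over all protein-coding genes. Lists differed in the median distal intronic sequence per gene, which was 3.11 kb over all genes. It was 39.3 kb in the RNA-binding list and 20.8 kb in the ecdysone list. In the chromatin list it was 2.08 kb and in the insulin and TOR list 0.467 kb, so host shares are not on equal terms between lists. In the list of ecdysone response genes and hormone receptors 14 of 21 genes with distal intronic sequence were hosts, with 161 members per Mb in the optimal list and 173 ± 18.4 in the top lists (SD, n = 3). Beside Eip75B and EcR, the strongest member lay in E23, an ecdysone-induced transporter gene (7 members, signal 2334, and 6, 8 and 7 in the top lists). br, the BTB gene at the core of the ecdysone response, held none in 49.9 kb, in the optimal list and in every top list. Without Eip75B the list had 132 per Mb.

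In the Hippo and growth list 7 of 10 genes were hosts. The strongest members were those of wts, Myc, the growth regulator (3 members, signal 1208, and 3 in each top list), and ds, which encodes the cadherin Dachsous (11 members, signal 850, and 7, 13 and 14). CycE, the cyclin that starts DNA replication, held none in 8.01 kb. In the insulin and TOR list only InR (10 members in 8 regions, and 9, 12 and 12 in the top lists) and foxo, its downstream transcription factor (2 members, signal 394), were hosts, of 9 genes. Without InR that list fell to 73.2 members per Mb from 234.

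In the Notch and EGF receptor list 12 of 17 genes were hosts, at 164 members per Mb. aop, the repressor Yan, held 7 members (strongest signal 2268, and 7, 6 and 8 in the top lists). N, the Notch receptor, held 11 (1975, and 10, 13 and 13), and mam, its coactivator Mastermind, held 6 (1108, and 7, 7 and 6). rl, the MAP kinase of the pathway, held none in 44.0 kb. Among imaginal disc selectors and patterning genes 17 of 35 were hosts, at 100.04 per Mb. The strongest members there lay in fz2, a Wnt receptor gene (8 members, signal 1421), ush, a GATA cofactor gene (9 members, 1239), and tkv, a Dpp receptor gene (5 members, 1164), while klu held none in 20.7 kb, with 1 summit in the top list of replicate 2.

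BTB factors held members in 8 of 12 genes at 84.0 per Mb, and without psq, the tagged gene, at 50.1. Beside psq the strongest members lay in chinmo (1 member, signal 1727) and bab2 (1 member, 729). The other BTB hosts had weaker members but held up to 6 each. Among Hox genes and cofactors 5 of 10 were hosts. Antp held 13 members (strongest signal 944, and 14, 9 and 12 in the top lists), hth, the cofactor Homothorax, held 9 (490, and 13, 10 and 9) and abd-A held 1 (272), while pb held none in 29.1 kb.

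The chromatin list had 405 members per Mb, of which Tet carried 37 of 52. Without Tet it had 265 per Mb, and 6 of 19 genes were hosts. trx, the trithorax methyltransferase gene, held 4 members in 6.98 kb (signal 1375, and 6, 5 and 6 in the top lists) and Psc, of the Polycomb repressor complex, held 2 (1124), while Pc, of the same complex, held none in 7.32 kb.

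Of the 12 lists, the lowest density was that of neuronal excitability and synapse genes, where 4 of 25 were hosts, at 17.4 members per Mb (17.4 ± 1.45 in the top lists, SD, n = 3). They were Ca-beta, a calcium channel subunit gene (7 members, strongest signal 690, and 6, 8 and 8 in the top lists), Shal, a potassium channel gene (1 member, 377), rut, an adenylate cyclase gene (2 members, 367), and dnc. Without Ca-beta the density was 7.51 per Mb. nAChRalpha6, an acetylcholine receptor gene, held none in 76.7 kb in any list. Axon guidance and adhesion genes were hosts in 21 of 36 cases, yet at 36.1 per Mb, below the 49.8 of all genes. The strongest members of this list lay in kirre, Ten-a (6 members, 951) and Sema1a (4 members, 680). Lar held none in 110.8 kb, with 1 summit in the top list of replicate 1.

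RNA-binding regulators were hosts in 12 of 20 cases at 36.8 per Mb. Their strongest members lay in pum (4 members, strongest signal 1753), heph (6 members, 1566) and sm (4 members, 1242). The most members, 9 in 17.8 kb, were those of brat, without which the list had 29.4 per Mb. In contrast, bru3 held none in 232 kb, of which 20.8% was repeat-masked. Muscle structure genes were hosts in 5 of 14 cases at 37.1 per Mb. Their strongest members lay in Tm1, a tropomyosin gene (1 member, 1409), Mef2, the muscle transcription factor gene (3 members, 790), and Dys (1 member, 518). No member lay in the 20.3 kb of bt. Abundance of each tissue in whole larvae was not measured, and its part in these differences was not tested.

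GAGAG was more frequent at distal intronic summits than in windows centred 500 bp away, by a modest margin. Within 50 bp of the summit, on either strand, GAGAG stood in 312 of 1850 members (16.9%), against 12.9% in windows centred 500 bp to either side, 11.4% of windows tiled over all distal intronic sequence, and 17.0% at all optimal summits. In the top lists the summit share was 16.3%, 16.7% and 19.0%, and the flank share 13.7%, 13.2% and 13.3%. The difference was 3.95 ± 1.59 percentage points (SD, n = 3), higher at the summit in 3 of 3 replicates (exact sign-flip p = 0.25, the smallest possible). The same difference was 3.17 ± 1.26 points in nearer introns and 1.64 ± 0.142 points in distal intergenic sequence. The longer GAGAGAG, which contains GAGAG, was in 3.95% of summit windows and 2.03% of flanks.

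**Figure D5:**
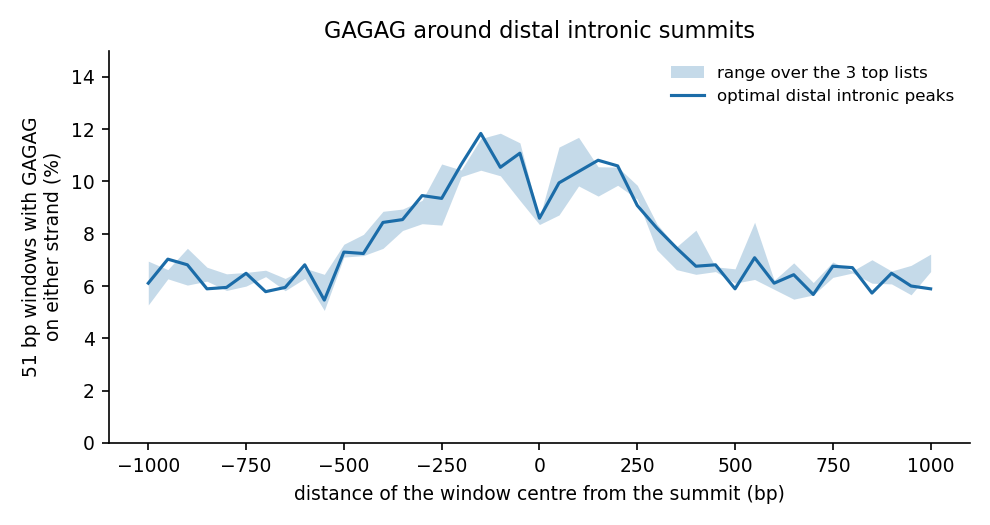
Share of 51 bp windows with GAGAG on either strand, by distance from the summit, for the optimal distal intronic peaks (line) and the range over the 3 top lists (band). The share was 8.59% at the summit, 11.8% at 150 bp before it and 10.8% at 150 bp after it, against 6.11% at 1000 bp before it and 5.89% at 1000 bp after it.

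GAGAG was less frequent at the summit itself than 50 to 250 bp to either side of it in the optimal list. In 51 bp windows it was present at 8.59% of summits, at 11.8% of points 150 bp to the left on the plus strand and at 10.8% of points 150 bp to the right. The top lists gave 8.55%, 8.60% and 8.35% at the summit, below 10.5%, 10.4% and 11.6% at 150 bp to the left and 9.44%, 9.85% and 10.6% at 150 bp to the right. At 1000 bp the optimal values were 6.11% and 5.89%. In classes of 370 members from the strongest to the weakest, the share with GAGAG within 50 bp was 21.9%, 15.7%, 14.6%, 17.6% and 14.6%, and in their flanks 14.6%, 14.3%, 11.6%, 13.2% and 10.7%. The first class was highest, and the others followed no order of signal. The median signal was 349 with the motif and 333 without.

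Other motifs tied to Polycomb response elements and GAGA-associated factors gave smaller or opposite differences. GCCAT, which Pleiohomeotic is known to bind, stood in 259 of 1850 summit windows and 19.3% of flanks, and lower at the summit in every top list by 4.28 ± 1.01 points (SD, n = 3; exact sign-flip p = 0.25, the smallest possible). AGGGA was in 13.1% against 11.3%, GGAAG in 12.9% against 13.5% and CACACA in 9.51% against 10.7%. In the top lists the last pair differed in sign between replicates. GGAAG differed from its flanks by -1.17, 0.34 and -0.38 points and CACACA by -1.30, -1.57 and 0.92 points (exact sign-flip p = 0.5 for each). Summit windows had 37.7% GC and flanks 41.2%, and the part of base composition in these shares was not tested.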

How the data were processed

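ChIP-seq peak lists of 3 biological replicates of psq-eGFP larvae were analysed. Per the labels, chromatin was sonicated to 200 to 800 bp. Per the deposited text files, the replicate lists mix peaks with background and fed an irreproducible discovery rate step, whose output is the optimal list. The aligner, the caller and its thresholds were not given in the sources used here. No control was used here. An entry has the authors' signal value, the authors' −log10 of the q-value (4.30 for every optimal entry) and a summit offset in bp, as deposited. No counts are given, so depth is unknown and no counting intervals could be given. The lists of entries on dm3 and the pooled list were not used here.

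Summits were placed on 18164 Ensembl release 115 genes (FlyBase 6.54) and the dm6 reference of RefSeq. The host was the gene whose intron held the summit, protein-coding and with the shortest intron first. Support meant an overlap of at least 1 bp with the 9459 strongest entries of a replicate list. GAGAG was searched on both strands within 50 bp of the summit. Replicate errors are SDs over these 3 lists and measure the spread between these samples alone. Differences were tested by an exact two-sided sign-flip test over replicates, whose smallest p is 0.25. Functions were tested on simulated data. Members and the 12 gene lists were chosen with earlier results of these data known, and all 271 list entries matched, 3 of them (Delta, nanos, mTor) after renaming to the gene models' symbols once results were known.

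Named genes were the hosts of the 12 strongest members, the 10 hosts with the most separate regions, hosts of the 3 members in the longest introns, of each list the 3 hosts with the strongest member and the gene with most distal intronic sequence and no member, and hosts of the 4 members on each side of the threshold. The 5 genes with the most distal intronic sequence were named after their values were seen. Alternatives moved the threshold, gene models, list size, overlap rule and windows. Python 3.11.15 with numpy 2.4.6, scipy 1.17.1 and matplotlib 3.10.9 was used.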

Additional observations from a re-analysis of the deposited data

How the results depend on the processing

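The 9 summaries of the class were recomputed under alternatives, and 78 of 109 values stayed within the spread between replicates (counts within 1.5 times). A q-value limit of 0.01 is not counted, as it removed no optimal entry. No value reversed. Distal introns stayed less dense than nearer introns in all 12 alternatives, and GAGAG stayed more frequent at the summit than in its flanks, centred 500 or 1000 bp away, in all 14. As reported, the density ratio to nearer introns was 0.455. It was 0.432 with the threshold at 2000 bp, 0.485 with 1 entry per set of overlapping entries and 0.487 with repeat-masked bases left out, an alternative added after the data were seen. The median intron length was 13456 bp and 17497 bp with thresholds of 2000 and 5000 bp, 14689 bp with start sites of protein-coding genes alone, 15267 bp with 1 entry per set, 14798 bp as a mean over the top lists, and 16760 and 21311 bp with the shortest and longest transcript intron. With 1 entry per set, support was 74.6% and 82.4% of members shared a host. The stronger 50% of the optimal entries held 842 members in 351 hosts, with a density ratio of 0.397, a median signal of 593, support of 98.7%, 80.9% sharing a host and a median intron of 14672 bp. Support was 55.2% when overlap had to reach 50% of both entries, 60.2% when summits had to lie within 100 bp, 40.2% with top lists cut to 50% and 99.2% with all entries. GAGAG shares were 8.59% and 32.3% in windows of 25 and 100 bp to each side, with differences of 2.00 and 8.27 points. Where these moved, the alternative itself changes the windows, lists or regions counted. RefSeq gene models gave the same values to the digits printed, and these values are included in the counts of alternatives above.

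Leaving out each replicate in turn gave 1828.5 to 1882 members, density ratios of 0.455 to 0.473, support of 81.0% to 86.6% (by the remaining lists), 566 to 585.5 hosts, 87.0% to 88.8% sharing a host, median introns of 14692.5 to 14852 bp, GAGAG shares of 16.5% to 17.8% and GAGAG differences of 3.07 to 4.62 points. No paired analysis was possible because the 3 samples form 1 group with no second group to pair, and differences between classes were taken within each replicate. Depth is unknown, so the precision of single peaks is unknown.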
